A study of Rattus norvegicus with 6 samples.

Results

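The enzymes that build glycosaminoglycan chains and sulfate them were represented by 51 genes of the 37991 genes listed for the rat tendon libraries. They were chosen by symbol: the genes of the linker, chain polymerases, epimerases, sulfotransferases and synthases of the sulfate donor, whatever their values. RNA was measured in the right Achilles tendon of male Sprague-Dawley rats, which are outbred, following a tenotomy at 8 weeks of age. The 3 samples of the PM group were taken from rats that then inhaled nebulized fine particulate matter from a coal-fired plant 3 times a week for 6 weeks in a closed chamber, and the non-PM group of 3 samples from rats that were not exposed. Both groups carried the tendon injury, so no uninjured tendon serves as a reference. The labels call the tendon repaired, whereas the study's methods describe complete transection with sutures in the skin, and the healed portion was taken whole. The labels number the samples without tying them to animals, and the study's methods give 3 tendons per group for RNA-seq, so each sample was treated as a separate tendon. The comparison asks whether expression in the healing tendon differed after inhalation of particulate matter.

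Glycosaminoglycans are long sugar chains carried by proteoglycans. In chondroitin and dermatan sulfate the repeating units hold N-acetylgalactosamine, and in heparan sulfate N-acetylglucosamine, both built on a shared linker that starts with xylose on the core protein. Sulfotransferases then place sulfate groups at defined positions, using the donor 3'-phosphoadenosine 5'-phosphosulfate (PAPS), and the sulfation pattern sets which growth factors and matrix proteins a chain binds. Tendon is rich in proteoglycans with dermatan sulfate chains, such as decorin, which bind collagen fibrils, and its compressed regions hold more aggrecan with chondroitin sulfate.

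Of the 51 genes, 43 had enough counts to be tested. The other 8 were sulfotransferases: Hs3st4, Hs3st6, Hs6st3, Ndst3, Ndst4, Chst4, Chst8 and Chst9. Chst9 had no count in any library, where a floor of 3 counts over all libraries corresponds to 0.00913 counts per 1000000 (CPM), and Hs3st4 and Chst4 had 2 counts each in all. Compared per length, as fragments per kilobase of transcript scaled to depth (FPKM), the highest mean levels over the 6 libraries belonged to Chpf at 35.2 FPKM, B3gat3 at 29.6, Ext2 at 26.8, Csgalnact2 at 21.6 and Chst12 at 17.1. These enzymes act in the linker, in chain synthesis or in 4-O-sulfation. Together the 51 genes took 0.141, 0.109 and 0.147% of counts in PM replicates 1 to 3, and 0.132, 0.146 and 0.0732% in non-PM replicates 1 to 3.

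Non-PM replicate 3 differed from the other libraries in its tissue makeup. The 11 tendon fibroblast markers took 0.791% of its counts, against 4.87 to 8.74% in the other 5 libraries. The 20 skeletal muscle markers took 10.9% of its counts, against 3.14, 8.51 and 4.94% in PM replicates 1 to 3 and 4.65 and 2.29% in non-PM replicates 1 and 2. The 12 chondrocyte markers took 0.0601% there and 1.14% in non-PM replicate 1, against 0.181, 0.574 and 0.390% in the PM replicates and 0.165% in non-PM replicate 2. The 8 keratinocyte markers took 0.0829% in non-PM replicate 2 and at most 0.00115% elsewhere. The remaining lists took 0.00457 to 0.229% (osteoblast, 7 markers), 0.0805 to 0.173% (endothelium, 10), 0.0285 to 0.131% (macrophage, 9), 0.0332 to 0.105% (adipocyte, 7) and 0.0487 to 0.134% (Schwann cell, 6). The tendon markers Tnmd and Scx were present in every library, and of the chondrocyte markers Matn1 was at 0 in every library. The exact two-sided permutation test of these shares cannot go below p = 0.1 with 3 against 3 samples, so no list could pass 0.05, and the lowest p was 0.3 (adjusted p = 1.0 over the 9 lists). By gene, in edgeR, 10 of 10 endothelial and 7 of 7 adipocyte markers had log2 fold changes above 0, with medians of 0.32 and 0.98. Of these, 2 and 1 were higher, with an unadjusted p below 0.05 and a fold of 1.2 or more. All 10 endothelial markers were highest in PM replicate 1, and 6 of 7 adipocyte markers in PM replicate 3. Above 0 were also 7 of 7 osteoblast, 10 of 11 tendon fibroblast, 5 of 9 macrophage and 3 of 11 tested chondrocyte markers. Of 6 Schwann cell markers 0 were above 0, against 49.5% of all tested genes. The median of the osteoblast markers was 0.44, and -0.11 without non-PM replicate 3. For tendon fibroblast markers these medians were 0.38 and -0.07, for macrophage 0.25 and -0.23, and for chondrocyte -0.37 and -0.70. For Schwann cell markers they were -0.55 and 0.24. Without that library the endothelial and adipocyte medians were 0.33 and 0.74. Of the 20 skeletal muscle markers 4 were higher, with 12 log2 fold changes above 0 and 8 below. Of 5 tested keratinocyte markers 2 were lower, against 1.47% higher and 1.49% lower of all tested genes. The muscle share sums genes that did not move together. The myosin gene Myh4 had 916 and 934 FPKM in PM replicates 2 and 3 and 2.44 to 7.57 elsewhere. Myh7 had 3600 FPKM in non-PM replicate 3 and 837 to 1531 elsewhere. The part of these cell types in the results below was not tested beyond the muscle covariate. In bulk tissue, fewer cells of a type and less RNA per cell cannot be told apart. Total counts ran from 46357986 to 62298837.

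Between the groups, 2 of the 43 tested genes were higher in PM tendons and 0 were lower, where higher or lower means a fold of 1.2 or more together with an unadjusted p below 0.05, the thresholds the study uses (the relaxed criterion). The genes were Chst7, a 6-O-sulfotransferase of chondroitin, and Hs3st1, the heparan sulfate 3-O-sulfotransferase known for making the antithrombin-binding site. This is 4.65% of the tested genes of the set, against 1.47% of all 18134 tested genes that were higher and 1.49% that were lower. After adjustment over all tested genes none of the 43 passed in edgeR's quasi-likelihood test (lowest adjusted p = 0.942), and of all 18134 tested genes 0.0% passed, with 2.96% at an unadjusted p under 0.05. DESeq2 called 8 genes of the whole table after adjustment and 0 of the set. The log2 fold change was above 0 for 30 of the 43 genes, or 69.8%, against 49.5% of all tested genes. Its median was 0.18 over the set, with a range from -1.29 to 0.82, and -0.00 over all genes. Without non-PM replicate 3 the median of the set was -0.06.

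**Figure D1:**
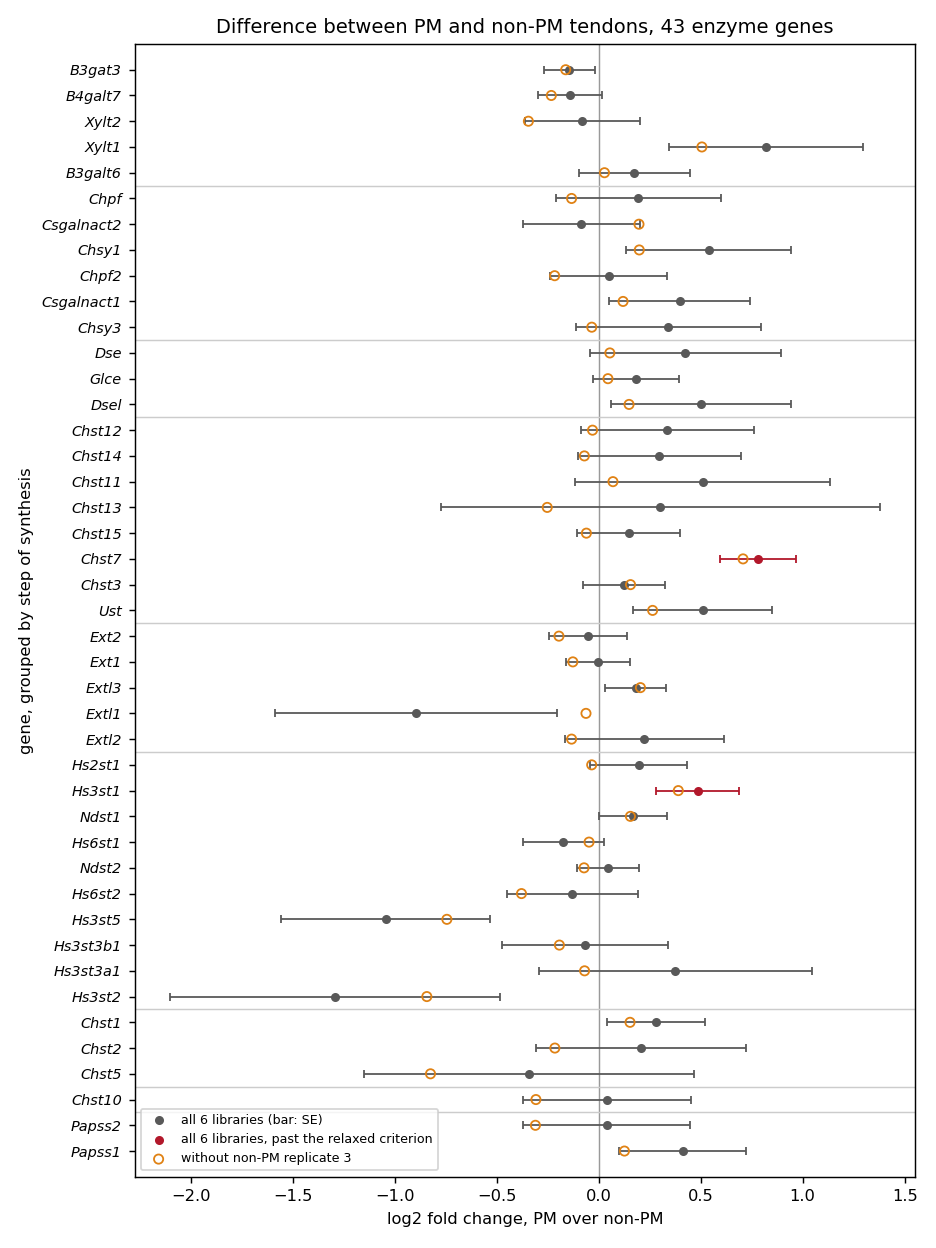
Log2 fold change (PM over non-PM) of the 43 tested genes, grouped by step of synthesis, with the standard error as bars and the value without non-PM replicate 3 as open circles. Chst7 and Hs3st1 are the genes past the relaxed criterion, and the median of the filled points is 0.18 and that of the open circles -0.06.

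The CPM of 32 of the 43 genes was lowest in non-PM replicate 3, or 74.4%, against 36.2% of all tested genes. The median deviation from each gene's mean, on the log2(CPM + 0.1) scale, was -0.62 in that library over the set, and 0.11, -0.07, 0.27, 0.12 and 0.12 in PM replicates 1 to 3 and non-PM replicates 1 and 2. Over all genes the same medians lay between -0.07 and 0.02. Non-PM replicate 3 held the lowest tendon fibroblast and the highest skeletal muscle marker share, and the part of these shares in the differences below was not tested apart from a fit with the muscle share as a covariate, given at the end. The highest CPM was in PM replicate 3 for 13 genes (30.2%, against 19.0% of all genes) and in non-PM replicate 3 for 5 genes (11.6%, against 29.8%). The 5 genes highest there were Extl1, Csgalnact2, Hs6st1, Hs3st5 and Hs3st2.

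**Figure D2:**
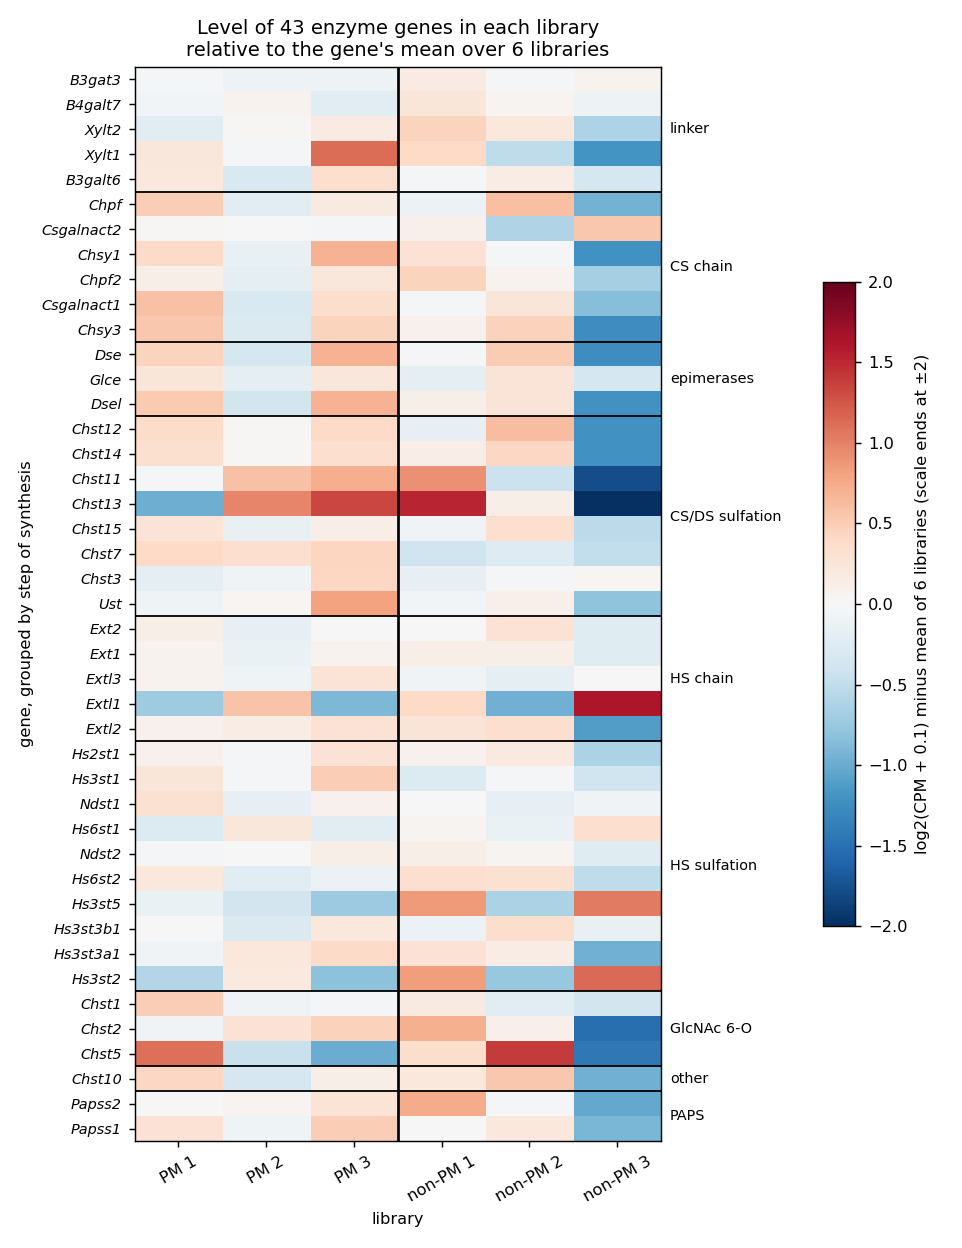
Level of the 43 tested genes in each library, as log2(CPM + 0.1) minus the gene's mean over 6 libraries, with rows grouped by step of synthesis (CS, chondroitin sulfate; DS, dermatan sulfate; HS, heparan sulfate). The column of non-PM replicate 3 is below the mean for 36 of 43 genes.

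The linker is made in order by the xylosyltransferases Xylt1 and Xylt2, the galactosyltransferases B4galt7 and B3galt6, and the glucuronosyltransferase B3gat3. None of these 5 genes passed the criterion, and with 2 positive and 3 negative log2 fold changes the median was -0.08. Xylt1 had 22.8, 19.2 and 42.4 CPM in PM replicates 1 to 3 and 25.7, 13.6 and 8.44 CPM in non-PM replicates 1 to 3. PM replicate 3 was the highest and non-PM replicates 2 and 3 the lowest, and the groups overlapped through non-PM replicate 1. The log2 fold change of Xylt1 was 0.82 ± 0.47 (SE, n = 3 per group, unadjusted p = 0.130 in edgeR), the highest of the set. Without non-PM replicate 1 it was 1.34 (edgeR unadjusted p = 0.0235), and without non-PM replicate 3 it was 0.51. By FPKM, Xylt1 made up 31.6, 24.73 and 39.6% of the xylosyltransferase message in the PM replicates and 24.75, 17.0 and 18.4% in the non-PM replicates. B3gat3, which adds the last sugar of the linker, had 51.2, 48.7 and 48.6 CPM in PM and 58.3, 51.4 and 54.6 CPM in non-PM tendons. It was the 1 gene of the set with all PM values below all non-PM values in CPM, or 2.33%, against 4.91% of all tested genes. In the deposited FPKM its groups overlapped, at 26.9 to 31.1 in PM and 24.6 to 33.0 in non-PM tendons. Its difference was small at -0.15 ± 0.12 on the log2 scale (edgeR unadjusted p = 0.286).

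Chondroitin chains are begun by Csgalnact1 and Csgalnact2 and extended by Chsy1, Chsy3, Chpf and Chpf2, which work as pairs of a catalytic enzyme and a partner. Of these 6 genes 5 leaned higher in PM tendons on the log2 scale, none passed the criterion, and the median was 0.27. In 5 of the 6 the lowest value was in non-PM replicate 3, and without it the median was 0.04. Chsy1 had 60.8, 41.9 and 75.7 CPM in PM and 56.7, 45.8 and 20.1 CPM in non-PM tendons, with overlapping groups. Its log2 fold change was 0.54 ± 0.40, and 0.20 without non-PM replicate 3. Chpf, the most abundant member of the whole set, had 146, 89.5 and 119 CPM in PM and 96.5, 159 and 54.4 CPM in non-PM tendons. Non-PM replicates held both its highest and its lowest value, and the log2 fold change of 0.19 ± 0.40 became -0.13 without non-PM replicate 3. Csgalnact2, described here for its departure from the others and chosen after its values were seen, had 87.8, 85.6 and 83.6 CPM in PM and 91.9, 56.4 and 124 CPM in non-PM tendons. The PM values were close together, while the non-PM values lay on both sides of them, lowest in replicate 2 and highest in replicate 3.

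The epimerases turn glucuronic into iduronic acid: Dse and Dsel in dermatan sulfate, Glce in heparan sulfate. The log2 fold changes of all 3 were positive, with a median of 0.43, and none passed the criterion. Each was lowest in non-PM replicate 3, and without it the median was 0.05. Dse had 65.2, 37.2 and 77.1 CPM in PM and 46.2, 67.4 and 20.004 CPM in non-PM tendons. The groups overlapped widely, and the log2 fold change of Dse was 0.43 ± 0.47.

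Chondroitin and dermatan sulfation was covered by 8 sulfotransferases. Chst3 and Chst7 sulfate the 6-O position of N-acetylgalactosamine, Chst11, Chst12 and Chst13 the 4-O position, and Chst14 the 4-O position in dermatan sulfate. Chst15 adds a 6-O-sulfate to a unit already sulfated at 4-O, and Ust sulfates the 2-O position of the uronic acid. The log2 fold changes of all 8 were positive (median 0.32), 1 gene passed the criterion (higher) and 7 did not. In 7 of them the lowest library was non-PM replicate 3, and without it the median was 0.02.

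The gene that passed, Chst7, differed between the groups with and without that library. It had 6.99, 6.66 and 7.10 CPM in PM and 3.97, 4.41 and 3.70 CPM in non-PM tendons. Every PM value was above every non-PM value, as for 2 of the 43 genes, or 4.65%, against 4.77% of all tested genes. The means were 6.92 ± 0.226 and 4.03 ± 0.359 CPM (SD, n = 3), a 1.72-fold difference. Its log2 fold change was 0.78 ± 0.19 (unadjusted p = 0.00460 and adjusted p = 0.942 in edgeR), and 0.71 without non-PM replicate 3. Over the 15 other settings tried it lay between 0.58 and 0.85, with unadjusted p from 7.40e-05 in DESeq2 to 0.0322 in edgeR with a replicate block. The adjusted p in DESeq2 was 0.0999. The level of Chst7 was low, with a mean of 2.14 FPKM.

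**Figure D3:**
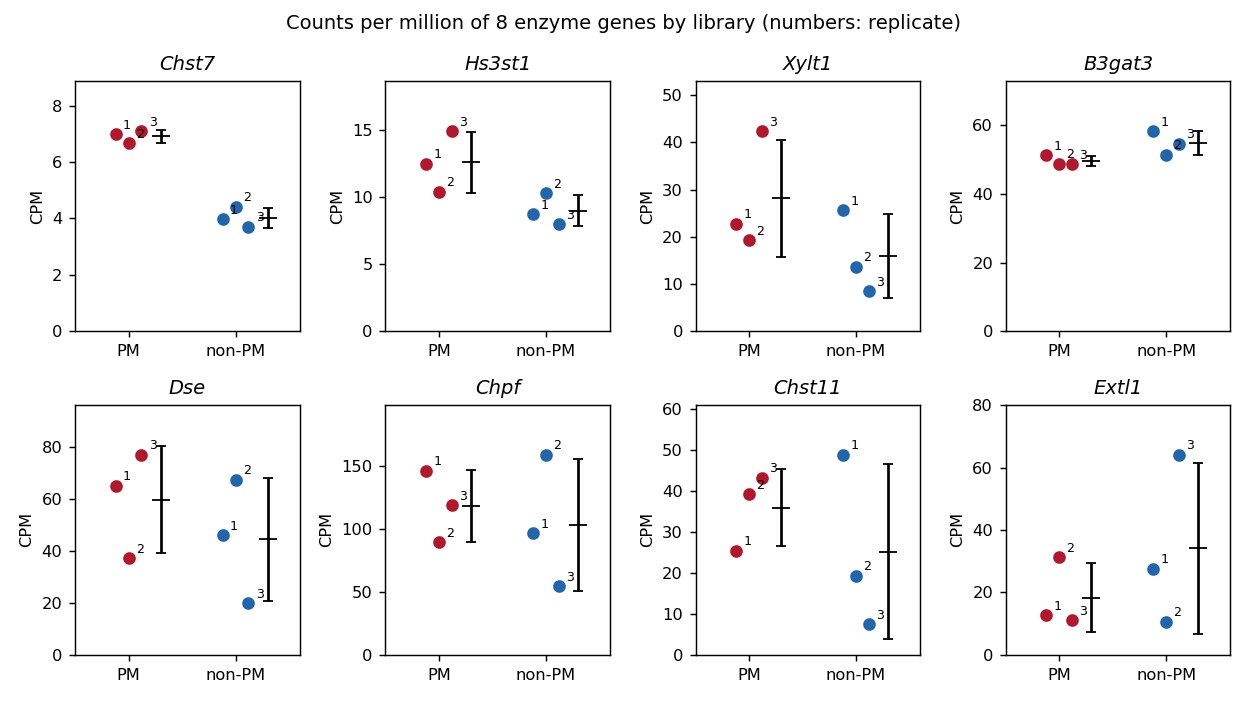
CPM of 8 genes in each library (red, PM; blue, non-PM; numbers give the replicate), with the mean and SD of each group as black bars. Chst7 values sit between 6.66 and 7.10 CPM in PM and between 3.70 and 4.41 CPM in non-PM tendons, whereas the groups of Dse, Chpf, Chst11 and Extl1 overlap.

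The upstream sequences of the genes with a call, and of Chpf and Extl1, are shown, Chpf as the most abundant member and Extl1 as the exostosin that varied most between libraries, because the study is concerned with cAMP signalling, whose nuclear factor CREB binds the cAMP response element (CRE). They run from 250 bases before to 50 bases after the gene start in RefSeq's GRCr8 assembly, 5′ to 3′ on the gene's own strand. Capitals mark the CRE TGACGTCA, which reads the same on both strands, and the GC box GGGCGG or its reverse complement CCGCCC, which Sp-family factors bind. The windows are chrX:4986323-4986622, minus strand, for Chst7, chr14:75398723-75399022, plus strand, for Hs3st1, chr9:84416474-84416773, minus strand, for Chpf and chr5:151872781-151873080, minus strand, for Extl1.
Chst7: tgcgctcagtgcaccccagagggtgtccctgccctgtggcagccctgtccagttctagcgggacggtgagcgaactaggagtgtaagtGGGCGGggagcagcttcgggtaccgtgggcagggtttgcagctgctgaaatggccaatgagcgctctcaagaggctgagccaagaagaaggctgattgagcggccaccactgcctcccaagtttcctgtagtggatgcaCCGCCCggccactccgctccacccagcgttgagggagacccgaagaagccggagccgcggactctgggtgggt
Hs3st1: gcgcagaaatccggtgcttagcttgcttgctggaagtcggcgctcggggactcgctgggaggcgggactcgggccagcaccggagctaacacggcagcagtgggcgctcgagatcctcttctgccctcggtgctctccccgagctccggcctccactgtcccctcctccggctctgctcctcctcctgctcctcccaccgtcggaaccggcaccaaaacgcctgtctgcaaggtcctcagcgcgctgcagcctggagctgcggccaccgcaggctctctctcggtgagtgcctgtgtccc
Chpf: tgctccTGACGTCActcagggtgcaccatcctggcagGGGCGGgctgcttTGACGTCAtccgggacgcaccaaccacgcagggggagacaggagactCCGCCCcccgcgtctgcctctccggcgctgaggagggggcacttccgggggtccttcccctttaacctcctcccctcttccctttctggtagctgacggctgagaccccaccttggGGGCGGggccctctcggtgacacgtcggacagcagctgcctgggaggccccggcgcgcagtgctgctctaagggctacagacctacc
Extl1: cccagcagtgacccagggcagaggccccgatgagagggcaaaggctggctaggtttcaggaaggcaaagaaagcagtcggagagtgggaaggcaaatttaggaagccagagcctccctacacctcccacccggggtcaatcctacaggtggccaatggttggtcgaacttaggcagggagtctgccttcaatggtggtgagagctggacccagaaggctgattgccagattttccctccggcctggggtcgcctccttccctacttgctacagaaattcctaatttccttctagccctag

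The Chst7 window held 2 GC boxes and no CRE. The Chpf window held 2 CREs, with first bases at -244 and -200 from the start, and 3 GC boxes. Those of Hs3st1 and Extl1 held none of these letters. A window was matched for 42 of the 51 genes, and 2 of them (Chpf and Hs3st2) held a CRE, or 4.76%, against 2.86% of the 12894 matched tested genes and 1.83% of all 33469 windows. The shorter half-site TGACG on either strand, which every CRE also contains, was in 21.4% of the members' windows, 29.4% of those of tested genes and 21.2% of all. The GC box was in 64.3%, 57.0% and 33.1%, and the members' median GC content was 67.0%, against 59.7% for tested genes. These matches describe letters in a window of a later assembly than the Rnor_6.0 genome on which the expression was measured.

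The other 6-O enzyme, Chst3, had 14.1, 15.5 and 21.7 CPM in PM and 14.5, 15.9 and 16.7 CPM in non-PM tendons, and its groups overlapped. It was chosen after its values were seen, as were Chst11 and Chst13 below. Its log2 fold change was 0.12 ± 0.20. By FPKM, Chst3 and Chst7 together made up 14.5, 17.0 and 15.9% of the 5 chondroitin 4-O and 6-O enzymes in PM replicates, and 10.7, 10.5 and 36.8% in non-PM replicates. The share was therefore lower in non-PM replicates 1 and 2 than in any PM replicate and far higher in non-PM replicate 3, where the 4-O enzymes were low.

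Among the 4-O enzymes, Chst12 had the highest level, with 41.2, 32.5 and 41.6 CPM in PM and 28.5, 48.9 and 13.8 CPM in non-PM tendons. The log2 fold change of Chst12 was 0.34 ± 0.43, and -0.03 without non-PM replicate 3. Ust had 8.88, 9.61 and 16.4 CPM in PM and 9.06, 10.1 and 5.34 CPM in non-PM tendons, with a log2 fold change of 0.51 ± 0.34. Its PM replicate 3 was above, and its non-PM replicate 3 below, 4 libraries that lay close together.

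Chst11 and Chst13 are given with the chondrocyte markers. Chst11, known for its requirement in cartilage growth in mice, had 25.4, 39.2 and 43.3 CPM in PM and 48.9, 19.3 and 7.58 CPM in non-PM tendons. Chst13 had 1.38, 5.64 and 7.26 CPM in PM and 8.22, 3.07 and 0.266 CPM in non-PM tendons. Both genes were highest in non-PM replicate 1, the library with 1.14% chondrocyte markers, and lowest in non-PM replicate 3, with 0.0601%. The same 2 libraries held the highest and lowest osteoblast marker share. That share was 0.0260, 0.154 and 0.179% in PM replicates 1 to 3 and 0.229, 0.0483 and 0.00457% in non-PM replicates 1 to 3. The log2 fold changes of 0.51 ± 0.62 and 0.30 ± 1.08 were smaller than their errors. Without non-PM replicate 1, the highest non-PM library, that of Chst11 was 1.42 (edgeR unadjusted p = 0.0259). Without non-PM replicate 3, the lowest, it was 0.07 (edgeR unadjusted p = 0.875), and that of Chst13 was -0.25. The part of cartilage or bone cells in these values was not tested.

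**Figure D4:**
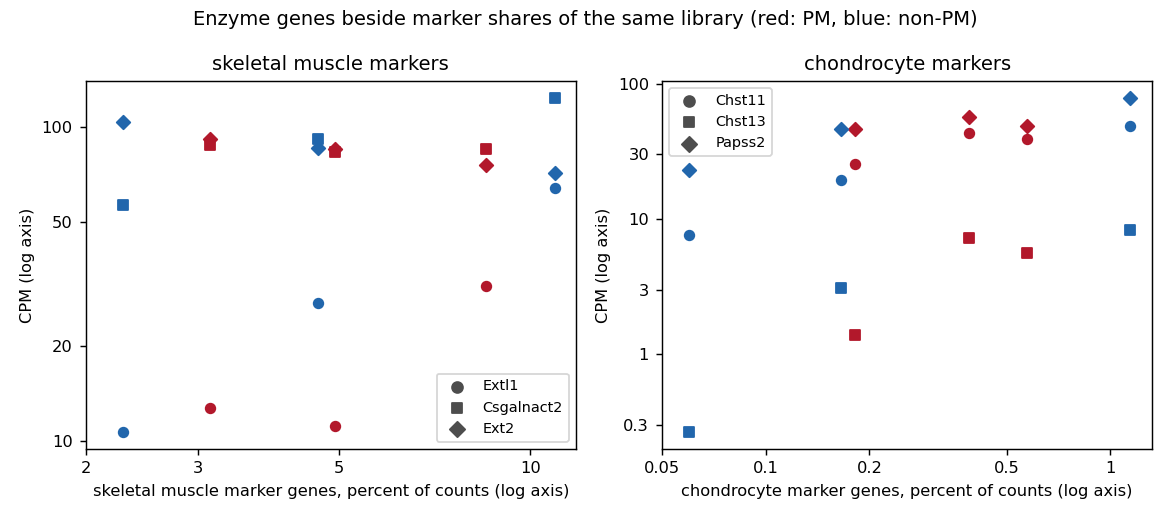
CPM of 3 genes against the skeletal muscle marker share of counts (left) and of 3 genes against the chondrocyte marker share (right) in the 6 libraries, all axes logarithmic (red, PM; blue, non-PM). Extl1 is highest, at 64.1 CPM, in the library with 10.9% muscle markers, and Chst13 is lowest, at 0.266 CPM, in the library with 0.0601% chondrocyte markers.

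Heparan sulfate chains are begun by Extl3 and polymerized by the Ext1 and Ext2 complex, and Extl1 and Extl2 are related transferases. None of these 5 genes passed the criterion, 2 were above 0 and 3 below, and the median was -0.00. Ext2 had 91.8, 75.7 and 85.0 CPM in PM and 86.0, 104 and 71.6 CPM in non-PM tendons, a log2 fold change of -0.05 ± 0.19. Extl3 had 62.01, 55.1 and 71.3 CPM in PM and 55.8, 52.0 and 58.3 CPM in non-PM tendons, a log2 fold change of 0.18 ± 0.15. These levels spread little between libraries. Reads of Extl3 may be divided with a record described as exostosin-like 3-like, which held 9340 counts against 19482 for Extl3, so its level is uncertain.

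Extl1 stood apart from the other exostosins. It had 12.7, 31.2 and 11.1 CPM in PM and 27.6, 10.7 and 64.1 CPM in non-PM tendons. Its highest values were in non-PM replicate 3 and PM replicate 2, the libraries with the most skeletal muscle markers (10.9 and 8.51%). Its lowest value was in non-PM replicate 2, the library with the fewest (2.29%). The order did not hold throughout, as PM replicate 3 had a larger muscle share than non-PM replicate 1 (4.94 against 4.65%) but less Extl1 (11.1 against 27.6 CPM). The log2 fold change of -0.89 ± 0.69 became -0.06 without non-PM replicate 3. By FPKM, Extl1 made up 5.97, 15.5 and 5.32% of the 5 exostosin genes in PM and 12.5, 4.78 and 28.6% in non-PM tendons. The part of muscle in this was not tested beyond the fit with the muscle share below.

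Heparan sulfation begins with the N-deacetylase and N-sulfotransferase enzymes Ndst1 and Ndst2 and continues at the 2-O position of the uronic acid (Hs2st1) and the 6-O and 3-O positions of glucosamine (Hs6st and Hs3st families). Of the 15 genes 10 were tested, 5 above 0 and 5 below, with a median of -0.01. Of these, 1 passed the criterion (higher) and 9 did not. Hs3st1 had 12.5, 10.4 and 14.9 CPM in PM and 8.70, 10.3 and 7.98 CPM in non-PM tendons. All PM values were above all non-PM values in CPM, though PM replicate 2 and non-PM replicate 2 nearly met. In the deposited FPKM the groups overlapped, with 9.63 in PM replicate 2 and 11.1 in non-PM replicate 2. The means were 12.6 ± 2.26 and 8.99 ± 1.18 CPM (SD, n = 3), a 1.40-fold difference, and its log2 fold change was 0.49 ± 0.20 (edgeR unadjusted p = 0.0497, adjusted p = 0.942). It kept its direction in all 15 other settings, from 0.35 to 0.61, but was under an unadjusted p of 0.05 in 5 of them (p from 0.0246 to 0.165 in edgeR, limma or DESeq2). Without non-PM replicate 3 the value was 0.39, and without PM replicate 3 it was 0.35.

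The other 3-O-sulfotransferases were rare. Hs3st5 and Hs3st2, chosen after their values were seen, had the lowest log2 fold changes of the set. Hs3st5 had 1.13, 0.949 and 0.719 CPM in PM and 2.34, 0.776 and 2.68 CPM in non-PM tendons, a log2 fold change of -1.04 ± 0.51 (edgeR unadjusted p = 0.0831). Hs3st2 had 0.121, 0.279 and 0.0876 CPM in PM and 0.487, 0.0946 and 0.620 CPM in non-PM tendons, a log2 fold change of -1.29 ± 0.81. For both genes non-PM replicates 1 and 3 were high and non-PM replicate 2 lay within the PM range. Without that replicate the values were -1.42 (edgeR unadjusted p = 0.00669) and -1.76 (edgeR unadjusted p = 0.0433). Leaving out the non-PM library nearest the PM values had to widen the difference. Without non-PM replicate 3 instead, Hs3st5 was at -0.74 (edgeR unadjusted p = 0.211) and Hs3st2 at -0.84 (edgeR unadjusted p = 0.387). Hs3st2 rested on 87 counts over all 6 libraries.

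Hs2st1, the gene of heparan sulfation with the highest mean FPKM (10.5), had 49.6, 46.1 and 57.1 CPM in PM and 49.8, 53.4 and 30.2 CPM in non-PM tendons, a log2 fold change of 0.20 ± 0.24. Its lowest library was non-PM replicate 3, and leaving that out gave -0.03. Hs6st1, chosen after its values were seen, had 24.1, 33.8 and 25.0 CPM in PM and 30.02, 26.6 and 36.8 CPM in non-PM tendons, a log2 fold change of -0.17 ± 0.20. Reads of Ndst2 may be divided with a record of the same description that held 7572 counts, against 7720 for Ndst2, so its level is uncertain. Likewise Chsy3 has a similar record with 291 counts, against 3860.

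Among the remaining sulfotransferases, Chst1 acts on galactose of keratan sulfate and Chst2 and Chst5 on N-acetylglucosamine. Chst1 had 15.5, 10.4 and 10.8 CPM in PM and 12.4, 9.43 and 8.44 CPM in non-PM tendons, a log2 fold change of 0.28 ± 0.24. The other members of this step, Chst2 and Chst5, had log2 fold changes of 0.21 and -0.34, and both were lowest in non-PM replicate 3. Chst10, which makes the HNK-1 sulfated epitope, had 11.2, 6.65 and 9.13 CPM in PM and 9.75, 12.2 and 4.23 CPM in non-PM tendons, a log2 fold change of 0.04 ± 0.41. None of these genes passed the criterion.

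The sulfate donor PAPS is made by Papss1 and Papss2. Papss1 had 37.7, 28.8 and 43.2 CPM in PM and 30.8, 35.5 and 16.3 CPM in non-PM tendons, a log2 fold change of 0.41 ± 0.31, and 0.13 without non-PM replicate 3. Papss2, whose loss in mice shortens the skeleton, had 46.6, 48.9 and 56.7 CPM in PM and 78.6, 46.2 and 23.1 CPM in non-PM tendons, a log2 fold change of 0.04 ± 0.41. Its PM values lay between the extremes of the non-PM group, which was highest in replicate 1, the library richest in chondrocyte and osteoblast markers. By FPKM, Papss2 made up 45.65, 53.6 and 47.0% of the pair in PM and 63.5, 46.9 and 49.1% in non-PM tendons.

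As shares of the summed FPKM of the 51 genes, chondroitin and dermatan sulfation took 10.9, 12.4 and 12.5% in PM and 10.5, 12.04 and 6.12% in non-PM tendons. The heparan chain genes took 15.4, 17.1 and 14.7% in PM and 16.4, 16.4 and 23.3% in non-PM tendons. In both, 5 libraries lay close together and non-PM replicate 3 stood outside. The summed FPKM were 393.6, 304.2 and 394.4 in PM and 356.1, 408.4 and 202.7 in non-PM tendons.

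The genes around these enzymes in the pathway were described by 3 lists. The precursor supply list (sugar nucleotides, their transporters and sulfate import) had 25 tested genes, 20 above 0 and 5 below, with a median of 0.18, which was 0.05 without non-PM replicate 3. In this list 1 gene was higher by the criterion, or 4.0%, against 1.47% of all tested genes, and 24 did not pass. This was Slc35a3, a Golgi transporter of UDP-N-acetylglucosamine, at 11.01, 10.7 and 12.7 CPM in PM and 9.66, 7.97 and 7.69 CPM in non-PM tendons, and its groups did not overlap. Its log2 fold change was 0.44 ± 0.18 (edgeR unadjusted p = 0.0419), and 0.37 without non-PM replicate 3 (edgeR unadjusted p = 0.0818). All PM values were above all non-PM values for 2 of the 25 genes, Slc35a3 and Gfpt1, or 8.0%, against 4.77% of all tested genes. Ugdh, which makes UDP-glucuronic acid, Slc26a2, a sulfate transporter, and Gfpt2, which feeds the hexosamine pathway, had log2 fold changes of 0.53 ± 0.24, 0.67 ± 0.40 and 0.60 ± 0.37 and did not pass.

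The core protein list had 36 tested genes of 39, 29 above 0 and 7 below, with a median of 0.24, which was 0.00 without non-PM replicate 3. Here 1 gene was higher, or 2.78%, against the same 1.47%, and 35 did not pass. The gene was Thbd, thrombomodulin, an endothelial anticoagulant that can carry chondroitin sulfate, at 144, 130.2 and 133 CPM in PM and 79.4, 105 and 104 CPM in non-PM tendons. Its log2 fold change was 0.50 ± 0.18 (edgeR unadjusted p = 0.0305), and 0.37 without non-PM replicate 1 (edgeR unadjusted p = 0.125). The endothelial marker share was 0.173, 0.103 and 0.114% in PM and 0.0965, 0.118 and 0.0805% in non-PM tendons, and its part in this value was not tested. The coreceptor Tgfbr3, the testican Spock2 and the syndecan Sdc4 had log2 fold changes of 0.72 ± 0.35, 1.06 ± 0.52 and -0.68 ± 0.40 and did not pass.

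The degradation and editing list had 23 tested genes, 18 above 0 and 5 below, with a median of 0.13, which was -0.08 without non-PM replicate 3, and 0 passed. Ids, the lysosomal iduronate-2-sulfatase, was nearest, at 72.5, 61.5 and 86.7 CPM in PM and 51.4, 56.8 and 59.5 CPM in non-PM tendons. The groups of Ids did not overlap, and its log2 fold change was 0.40 ± 0.17 (edgeR unadjusted p = 0.0581). All PM values were above all non-PM values for 1 of the 23 genes, or 4.35%, against 4.77% of all tested genes. The lysosomal sulfatases Arsg and Sgsh and the heparanase Hpse had log2 fold changes of -0.36 ± 0.18, 0.46 ± 0.32 and 0.32 ± 0.26. The lowest value was in non-PM replicate 3 for 16 of 25 genes of the precursor list (64.0%), 21 of 36 core proteins (58.3%) and 17 of 23 genes of degradation (73.9%), against 36.2% of all tested genes.

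With the log2 of the skeletal muscle share of counts as a covariate in edgeR, 9 of the 43 genes were higher by the same criterion and 1 was lower. In this fit 991 of all 18134 tested genes were higher and 623 lower, against 266 and 271 without the covariate, so calls rose over the whole table. The 9 were Chst7, Hs3st1, Chst12, Chpf, Chsy3, Csgalnact1, Dse, Dsel and Papss1, and the 1 lower was Extl1 at -0.72 (edgeR unadjusted p = 0.0250). All 9 were lowest in non-PM replicate 3, the library with the largest muscle share (10.9%). With that library left out and no covariate, Chst7 was at 0.71 and Hs3st1 at 0.39. The others of the 9 then lay between -0.13 (Chpf) and 0.15 (Dsel), and Extl1 was at -0.06. The median of the set was 0.20 in this fit, against 0.18 without the covariate. The lowest adjusted p among the members was 0.525 in edgeR, and 3 residual degrees of freedom remained among the 6 libraries.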

How the data were processed

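Libraries were prepared with a TruSeq Stranded mRNA kit for paired-end sequencing. The submitters' processing notes name FastQC 0.11.7, Trimmomatic 0.38, HISAT2 2.1.0 and the Rnor_6.0 genome, and the study names StringTie. The authors deposited whole-number counts per gene and sample, not normalized. The authors also deposited FPKM, which divide fragments by transcript length and depth. The counting step, its use of strand and its treatment of reads that match several loci are not given in the sources used here, so similar copies may share reads.

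The groups were compared with edgeR 4.0.16 under R 4.3.3 (filterByExpr on group, TMM factors, quasi-likelihood F test with group as the only term, two-sided), with Benjamini-Hochberg adjustment over the 18134 tested genes. The fit was tested on simulated data in which all libraries shared the same base profile. The libraries here differed in tissue makeup, so that test does not show how the fit performs on them. The SE was taken as the size of the log2 fold change divided by the root of F. CPM are counts over the TMM-scaled library total. Alternatives used DESeq2 1.42.0, limma 3.58.1 on log2(FPKM + 1) or log2(FPKM + 0.1), other scalings and filters, a replicate block, a skeletal muscle covariate and each library left out in turn. Any 2 libraries differed by a chi-square per degree of freedom of 189.6 or more, so none were counted as 1 sample. Intervals were not needed, and the floor of 3 counts covers counting error only.

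Per-sample values are given for members past the relaxed criterion and the 10 with the smallest p at a mean FPKM of 1 or more. They are also given for the most abundant of each step and those at that FPKM without overlap between groups. Of each pathway list up to 4 genes with the smallest p are named, with per-sample values for the first of them only. Members and lists were chosen with earlier results of these data known. Chst6 of the sulfation list had no match in the table, 1 of 2 records of Ogn was used, and Cemip2 and Cnmd were matched under other symbols. Promoter windows are RefSeq's in GRCr8.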

Additional observations from a re-analysis of the deposited data

How the results depend on the processing

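The 15 other settings gave 536 values for 36 single genes of the set and the 3 pathway lists, many of them named for a small p. Of these values 467 kept direction and side of the relaxed criterion, 25 no longer passed it, 24 newly passed it and 20 changed sign. Most of the 36 genes had not passed in the main fit, so keeping the side mostly meant not passing again. The 25 values came from 3 genes, Hs3st1, Slc35a3 and Thbd. These genes passed in 5, 5 and 10 of the 15 settings, and Chst7 passed in all 15. The number of members higher in PM was 1 with upper quartile factors, with no low-count filter, with each of the 3 limma fits on FPKM and with the replicate block, and 1 to 3 with 1 library left out. It was 9 with the skeletal muscle covariate, which also gave 1 lower member. Leaving out 1 library gave 0 to 3 lower members, the 3 (Hs3st2, Hs3st5 and Hs6st3) without non-PM replicate 2. No member passed the adjusted threshold in any setting. Over all genes, calls at an unadjusted p under 0.05 numbered 537, against 846 in DESeq2, 218, 216 and 646 in the limma fits, 155 with the block, 1619 with the covariate, and, leaving out 1 library, 206 (PM replicate 3), 1209 (non-PM replicate 2) and 826 (non-PM replicate 3). The limma fit on log2(FPKM + 0.1) moved the median of all genes to 0.11, against 0.32 for the members. It gave log2 fold changes of 0.074 for Csgalnact2 and 0.052 for Ext2, and log2(FPKM + 1), with or without the filter, gave 0.070 and 0.048, where the edgeR values were -0.08 and -0.05.

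With 1 library left out, log2 fold changes ranged from -0.030 to 0.86 for Chst12, -0.25 to 1.51 for Chst13, -0.081 to 0.25 for Chst3, -0.13 to 0.65 for Chpf, -0.33 to 0.20 for Csgalnact2, -0.19 to 0.10 for Ext2, -0.034 to 0.35 for Hs2st1, -0.31 to 0.36 for Chst10 and -0.31 to 0.54 for Papss2. Differences of marker shares (PM minus non-PM, percentage points) ranged from -0.706 to 2.49 for tendon fibroblast, -0.272 to 0.269 for chondrocyte, -0.0188 to 0.0931 for osteoblast, -2.26 to 2.06 for skeletal muscle, -0.0240 to 0.0274 for macrophage, -0.0409 to 0.000168 for keratinocyte and -0.0329 to 0.00999 for Schwann cell markers, and stayed above 0 for endothelium (0.0101 to 0.0454) and adipocyte markers (0.00912 to 0.0363). The cause of these changes was not tested.

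Same-numbered samples did not deviate together from their group means (r of -0.17, -0.39 and -0.31 across genes). With 3 libraries per group of differing tissue makeup, this cannot exclude that same-numbered samples shared a batch, and the labels give no pairing. With the replicate block Chst7 was at 0.78 (edgeR unadjusted p = 0.0322) and Hs3st1 at 0.48 (edgeR unadjusted p = 0.140). With 3 libraries per group, 1 library can decide the sign of a gene, and genes such as Hs3st2 are limited by their counts.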
